A study of Arabidopsis thaliana with 32 samples.

Results

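The rosette transcriptomes of an IMA3 overexpressor and of an EYFP control line of Arabidopsis thaliana were compared after transfer of seedlings to iron-deficient medium. The IMA3 OE line carries the open reading frame of IMA3 (AT2G30766) and the control line carries EYFP, a yellow fluorescent protein, each behind the constitutive 35S promoter, so that expression of the transgene was not limited to 1 cell type. Seedlings grew for 10 days on iron-sufficient plates and were sampled 72 h after transfer to fresh plates, which held 25 seedlings each. The deficient medium lacked iron and contained ferrozine, a chelator of ferrous iron, at 100 µM per the treatment protocol and 300 µM per the series design. The comparison rests on 2 IMA3 OE and 2 EYFP libraries of 32 in the series (4 lines, roots and rosettes, both media). It covers the 19472 of 33607 genes that had a mean of at least 0.5 RPKM over these 4 libraries. The same lines on control medium, again with 2 libraries each, were used to set the line difference beside that of iron-supplied plants. Titles and tissue fields call these samples rosettes, while the source field reads roots. The labels do not say whether the overexpressor is 1 transgenic clone, or whether replicates came from separate cultures, so a p-value here reflects the spread among libraries alone, which may be technical.

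IMA genes encode IRON MAN peptides, small peptides that promote the iron deficiency response. They bind the E3 ligases BTS and BTSL, which otherwise mark for degradation the bHLH factors that activate the response. These factors switch on the subgroup Ib genes bHLH38, bHLH39, bHLH100 and bHLH101 and the IMA genes themselves. In leaves, iron shortage is known to raise these regulators and to lower ferritins and iron-containing chloroplast proteins. Overexpression of IMA peptides is known to cause iron accumulation.

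Coding sequences of the 3 IMA genes that the results turn on are shown 5′ to 3′, from the RefSeq annotation of TAIR10.1. They lie at chr2:13108068-13108211, plus strand, for IMA3, at chr1:17385818-17385970, plus strand, for IMA1 and at chr1:17383117-17383269, plus strand, for IMA2, each within 1 exon. Capitals mark the longest run of bases that all 3 share, which is 9 bases long and occurs 2 times in a row in IMA3.
IMA3: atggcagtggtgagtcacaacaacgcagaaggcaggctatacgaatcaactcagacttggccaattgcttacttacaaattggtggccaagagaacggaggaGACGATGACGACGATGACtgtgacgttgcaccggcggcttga
IMA1: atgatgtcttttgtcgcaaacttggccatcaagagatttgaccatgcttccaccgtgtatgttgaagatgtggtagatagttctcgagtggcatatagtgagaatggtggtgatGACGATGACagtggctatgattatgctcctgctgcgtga
IMA2: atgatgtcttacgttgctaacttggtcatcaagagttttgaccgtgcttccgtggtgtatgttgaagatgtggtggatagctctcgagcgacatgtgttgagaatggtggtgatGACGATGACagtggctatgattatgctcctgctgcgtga
The coding sequences of IMA1 and IMA2 were 88.9% identical, with a shared run of 55 bases. In rosettes of an IMA1 overexpressor on control medium IMA1 was at 483.91 and 346.8 RPKM and IMA2 at 0.2 and 0.2 RPKM. IMA3 was 51.4% identical to IMA1 and 52.1% identical to IMA2.

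The construct features of the deposited table followed the labels. The IMA3 construct feature was at 26.69 and 27.34 RPKM (replicates 1 and 2, here and below) in IMA3 OE libraries on deficient medium and at 0.02 and 0.00 RPKM in EYFP libraries. The EYFP construct feature was at 131.06 and 141.57 RPKM in EYFP libraries and at 0.05 and 0.04 RPKM in IMA3 OE libraries. The IMA3 locus itself (chr2:13107583-13110480) was at 287.03 and 432.08 RPKM in EYFP and at 109.23 and 126.74 RPKM in IMA3 OE, so the overexpressor had the lower values at the native locus. The difference was -1.58 on the log2(RPKM + 0.5) scale (SE 0.78, adjusted p = 1), on which all differences below are given as IMA3 OE minus EYFP. How reads of the open reading frame were divided between the locus and the construct feature is not given in the sources used here. The locus also overlaps AT2G30760 and AT2G30770 on the opposite strand. On control medium the IMA3 construct feature was at 31.97 and 27.03 RPKM in IMA3 OE, and the locus was at 14.72 and 12.59 RPKM there and at 48.03 and 9.79 RPKM in EYFP.

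The EYFP libraries on deficient medium differed from each other in their iron-related genes. Replicate 2 had the higher bHLH100 level, 404.37 against 102.18 RPKM, and the lower NEET level, 3.32 against 10.46 RPKM. The IMA3 OE libraries were closer to each other, at 38.22 and 45.36 RPKM for bHLH100 and at 88.14 and 57.66 RPKM for NEET. Values without each EYFP library are given below for the called genes NEET and BTSL1 and for the main iron genes. A fit with a library left out takes the spread from the other groups only. The scatter between the 2 libraries of the reduced group then no longer counts toward the p, so passing in such a fit is no separate test. Sums of RPKM over all genes ranged from 713211 to 743037 over the 16 rosette libraries. Root hair markers, which rosettes should lack, were near 0: the highest value of any of the 3 markers in the 4 libraries was 0.16 RPKM. Photosynthesis transcripts (36 genes) summed to 102583 to 106041 RPKM in EYFP and 103889 to 111768 RPKM in IMA3 OE. The sorted values of a table's libraries nearly coincide, as after equalising. The closeness of these sums and of those over all genes can therefore come from the scaling and is no check on the libraries. Since whole rosettes were sampled, fewer cells of a type and less RNA per cell cannot be told apart.

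Of the 19472 genes, 12 (0.0616%) passed an adjusted p of 0.05, of which 10 were higher (0.0514%) and 2 lower (0.0103%) in IMA3 OE. At an unadjusted p under 0.05 there were 697 genes (3.58%), 391 higher (2.01%) and 306 lower (1.57%), and the median difference over all genes was -0.02. Both IMA3 OE libraries lay above both EYFP libraries for 1969 genes (10.1%) and below both for 2857 genes (14.7%). The 12 genes included NEET and BTSL1, which are part of iron-sulfur metabolism and of the control of the iron response. FSD1, FER1 and the bHLH genes of subgroup Ib, described below, had larger differences than most of the 12 with groups that did not overlap, but did not pass the adjusted threshold.

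**Figure D1:**
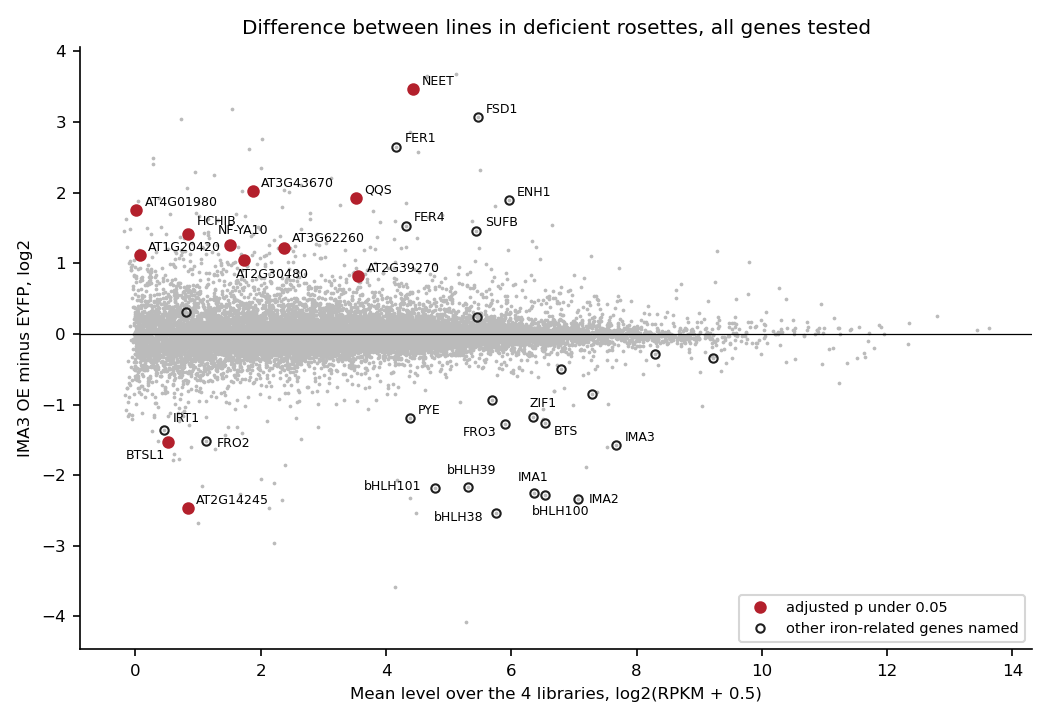
Difference between lines (IMA3 OE minus EYFP, log2) against mean level (log2(RPKM + 0.5)) in deficient rosettes for all 19472 genes tested, with the 12 genes at an adjusted p under 0.05 as filled red points and other iron-related genes named in the text as open circles. NEET at 3.47 and BTSL1 at -1.54 are filled, while FSD1, FER1 and the bHLH genes are open circles far from 0.

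NEET (AT5G51720, chr5:21009347-21010345) encodes an iron-sulfur protein of chloroplasts and mitochondria. It was at 10.46 and 3.32 RPKM in EYFP and at 88.14 and 57.66 RPKM in IMA3 OE. Both overexpressor libraries were several-fold above both control libraries, and the transcript was higher by 3.47 (SE 0.49, adjusted p = 0.0423). The call held in 1 of 4 fits with a library left out: the difference was 4.23 without EYFP replicate 1 (adjusted p = 0.00911) and 2.71 without EYFP replicate 2 (adjusted p = 0.226), and the adjusted p reached 0.464 without IMA3 OE replicate 1.

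QQS (AT3G30720, chr3:12349047-12349933), a gene found in Arabidopsis alone that is known to affect starch content, had the lowest p. Its levels were 5.59 and 5.15 RPKM in EYFP and 21.42 and 22.13 RPKM in IMA3 OE. The replicates of each line nearly coincided, and the transcript was higher by 1.92 (SE 0.14, adjusted p = 0.000986). QQS kept an adjusted p under 0.05 without any 1 of the 4 libraries, with 0.0314 as the highest value.

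The other higher genes covered several functions. AT3G43670, of the copper amine oxidase family, was at 1.65 and 1.04 RPKM in EYFP and 8.53 and 5.55 RPKM in IMA3 OE (2.02, SE 0.25, adjusted p = 0.0395). HCHIB (AT3G12500), a basic chitinase induced in defence, was at 0.52 and 0.67 against 2.01 and 2.91 RPKM (1.42, adjusted p = 0.0395). NF-YA10 (AT5G06510), a subunit of the transcription factor nuclear factor Y, was at 1.61 and 1.1 against 4.01 and 3.80 RPKM (1.26, adjusted p = 0.0395). In each of these genes the IMA3 OE values were all above the EYFP values. With 1 library left out the call of HCHIB held in 0 of 4 fits, and those of AT3G43670 and NF-YA10 in 1 of 4 each (adjusted p up to 0.361).

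AT3G62260, a protein phosphatase of the 2C family, was higher by 1.22 (3.25 and 2.56 against 7.16 and 7.58 RPKM). AT2G39270, annotated as a nucleoside triphosphate hydrolase, was higher by 0.82 (8.44 and 8.29 against 13.89 and 16.56 RPKM), and AT2G30480, annotated as uncharacterized, by 1.05 (1.83 and 1.81 against 4.52 and 4.1 RPKM). Each of these 3 had an adjusted p of 0.0395, and with 1 library left out the call held in 1 of 4 fits for AT3G62260 and in 0 of 4 for AT2G39270 and AT2G30480 (adjusted p up to 0.361). The remaining calls were on features with little signal. The pseudogene AT4G01980 was at 0.08 and 0.02 RPKM in EYFP and 1.50 and 1.22 RPKM in IMA3 OE. The proline tRNA gene AT1G20420 had the same value, 0.21 RPKM, in both EYFP libraries and the same value, 1.04 RPKM, in both IMA3 OE libraries. Neither held its call in any of the 4 fits with a library left out.

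BTSL1 (AT1G74770, chr1:28089172-28094956) encodes a BRUTUS-like E3 ligase that restrains iron uptake and is known mainly from roots. It was at 1.45 and 2.55 RPKM in EYFP and at 0.34 and 0.34 RPKM in IMA3 OE. The transcript was lower by the log2 difference of -1.54 (SE 0.22, adjusted p = 0.0497). The call held in 1 of 4 fits with a library left out, that without EYFP replicate 1 (adjusted p = 0.00976), while the difference was -1.22 without EYFP replicate 2 (adjusted p = 0.289) and the adjusted p reached 0.454 without IMA3 OE replicate 1. With a pseudocount of 0.1 or 1 RPKM no lower gene passed. The pseudogene AT2G14245 was lower as well, at 2.08 and 6.31 RPKM in EYFP and 0.11 and 0.45 RPKM in IMA3 OE (-2.46, adjusted p = 0.0497), with a call that held in 1 of 4 such fits and an adjusted p up to 0.574.

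To give 12 genes in each direction, the lists were filled with the lowest p among genes not past the threshold, 2 above and 10 below the EYFP level, so these numbers show no balance of direction. SUFB, the scaffold subunit of the chloroplast machinery that builds iron-sulfur clusters, and AT2G43150, annotated as a proline-rich extensin-like protein (0.69, adjusted p = 0.0775), were the genes above. Those below included CDI, annotated as a sugar transferase (111.04 and 153.20 against 65.60 and 58.43 RPKM, adjusted p = 0.0604), and STE1, a sterol desaturase (-0.44, adjusted p = 0.101). AT1G47407, a locus that is absent from the annotation used, was at 24.18 and 55.11 RPKM in EYFP and 7.74 and 8.87 RPKM in IMA3 OE (-2.08, adjusted p = 0.0977). AT3G02480, of the late embryogenesis abundant family, was at 6.33 and 14.92 against 0.81 and 2.12 RPKM (-2.47, adjusted p = 0.173). The pseudogene AT2G14230, at chr2:6027499-6029693 and on the same strand as AT2G14245 at chr2:6031151-6032502, differed by -2.68 (adjusted p = 0.0604). AT1G02700, annotated as similar to GATA transcription factors, differed by -1.13, and the threonine tRNA gene AT4G11405 by -0.99. FRO2, PYE and ZIF1 completed this set and are described with their groups.

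Transcripts of the iron deficiency regulators lay lower in IMA3 OE rosettes. Of 21 genes on this list 19 were tested, with a median difference of -1.19 against -0.02 over all genes. BTSL1 passed the adjusted threshold, 9 members were lower at an unadjusted p under 0.05 and none was higher, against 1.57% lower over all genes. IMA1 was at 143.56 and 224.96 RPKM in EYFP and at 40.96 and 33.82 RPKM in IMA3 OE (-2.26, SE 0.53, adjusted p = 0.369). IMA2 was at 210.20 and 434.15 against 54.91 and 64.00 RPKM (-2.34, adjusted p = 0.251). All 3 IMA loci thus had lower values in both IMA3 OE libraries than in either EYFP library. Without EYFP replicate 1 the differences were -2.58 for IMA1 and -2.86 for IMA2, and without replicate 2 they were -1.93 and -1.82.

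The 4 subgroup Ib factors, which act with FIT in roots and are markers of iron shortage in leaves, gave a like picture. bHLH38 was at 76.55 and 218.81 RPKM in EYFP and at 18.93 and 25.50 RPKM in IMA3 OE (-2.53, SE 0.62, adjusted p = 0.443). bHLH39 was at 46.60 and 149.17 against 14.06 and 23.57 RPKM (-2.17, adjusted p = 0.771), and bHLH101 at 39.25 and 85.04 against 9.53 and 16.09 RPKM (-2.18, adjusted p = 0.771). For bHLH100 the difference was -2.27 (adjusted p = 0.725). The groups did not overlap for any of the 4 genes. The size depended on the EYFP library: bHLH38 differed by -3.29 without replicate 1 and by -1.78 without replicate 2, bHLH100 by -3.26 and -1.28, bHLH39 by -2.999 and -1.33, and bHLH101 by -2.73 and -1.62.

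The upstream sequences of these 4 genes are shown because they lay lower together and are known to be regulated by bHLH factors, which bind the G-box CACGTG. Each line gives the 150 bases before the annotated start, 5′ to 3′ on the strand of the gene, from RefSeq TAIR10.1, at chr3:21085246-21085395 for bHLH38, chr3:21087711-21087860 for bHLH39, chr2:17199455-17199604 for bHLH100 and chr5:1139634-1139783 for bHLH101, all on the minus strand. Capitals mark the letters CACGTG, which read the same on both strands.
bHLH38: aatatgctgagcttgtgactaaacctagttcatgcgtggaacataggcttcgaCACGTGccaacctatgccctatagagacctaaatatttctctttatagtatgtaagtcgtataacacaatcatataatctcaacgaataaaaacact
bHLH39: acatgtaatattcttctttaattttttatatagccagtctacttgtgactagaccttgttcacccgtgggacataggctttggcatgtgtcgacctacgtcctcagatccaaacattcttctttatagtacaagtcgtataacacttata
bHLH100: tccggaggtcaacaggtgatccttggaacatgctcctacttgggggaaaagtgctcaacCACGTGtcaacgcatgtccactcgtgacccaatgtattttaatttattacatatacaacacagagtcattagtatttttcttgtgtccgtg
bHLH101: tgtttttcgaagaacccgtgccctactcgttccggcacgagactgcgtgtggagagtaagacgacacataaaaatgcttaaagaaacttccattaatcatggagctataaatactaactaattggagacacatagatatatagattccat
The motif stood 97 to 92 bases before the start of bHLH38 and 91 to 86 bases before that of bHLH100, and these letters were not in the windows of the other 2. Within 300 bases of the start, 4 of the 21 regulators (19%) held the motif, namely bHLH38, bHLH100, BTS and bHLH11, against 8.01% of 19244 tested genes with a window. Such a share was not particular to this list: over the other lists it ranged from 0% (zinc transport) to 50% (phloem markers). It was 20% for iron storage, with a median difference of 0.67, and 19.4% for photosynthesis, with 0.05. Of the 4 regulators with the motif, bHLH11 differed by 0.37. A match is a description of letters and not evidence of binding.

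PYE (AT3G47640), a bHLH factor that represses part of the iron response, was at 32.59 and 29.40 RPKM in EYFP and at 16.28 and 10.81 RPKM in IMA3 OE (-1.19, SE 0.23, adjusted p = 0.211). BTS (AT3G18290), the BRUTUS E3 ligase, was at 107.61 and 192.47 against 58.73 and 60.84 RPKM (-1.26, adjusted p = 0.309). The difference of BTS was -1.68 without EYFP replicate 1 and -0.84 without replicate 2. The regulators that act before these in the pathway had small differences: URI was at -0.09, ILR3 at 0.05, bHLH104 at 0.04, bHLH34 at 0.02 and bHLH115 at -0.07, with groups that overlapped for each. FIT, the root regulator of iron uptake, was at 1.15 and 1 RPKM in EYFP and 1.53 and 1.38 RPKM in IMA3 OE (0.31, adjusted p = 1).

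**Figure D2:**
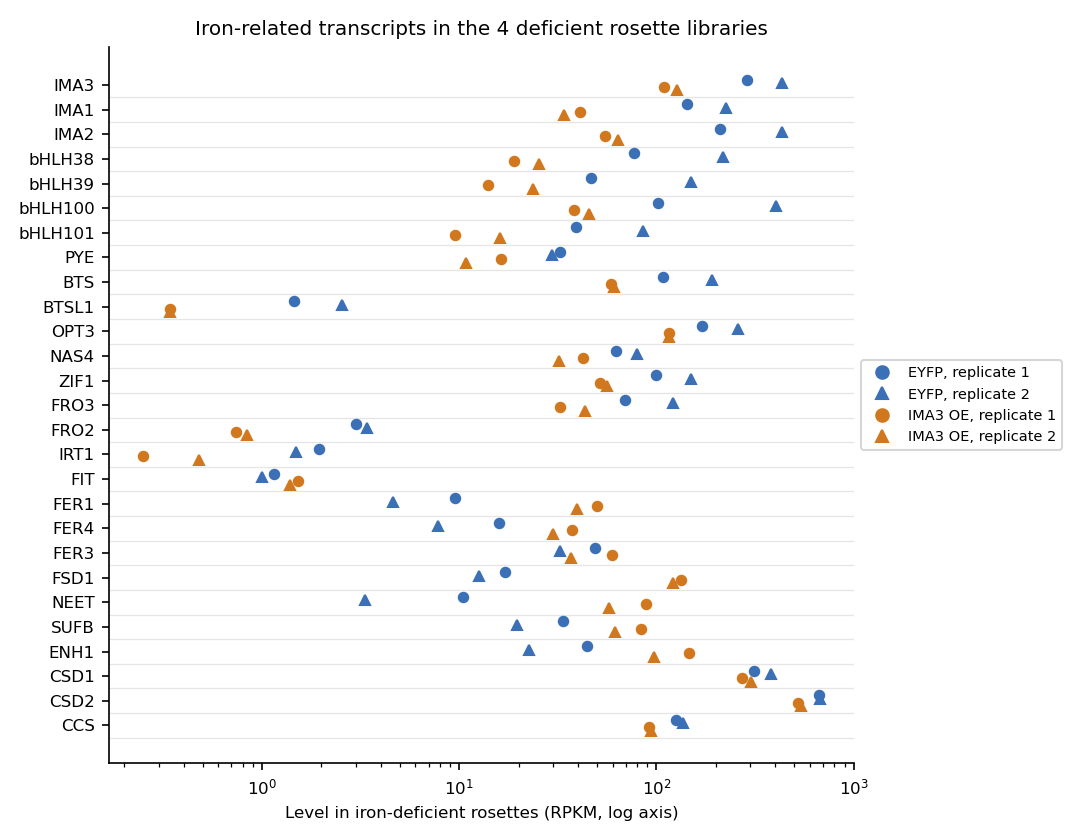
Levels (RPKM, log axis) of 27 iron-related transcripts in the 4 deficient rosette libraries, EYFP in blue and IMA3 OE in orange, with circles for replicate 1 and triangles for replicate 2. From IMA3 to IRT1 the orange points lie to the left of the blue ones, from FER1 to ENH1 to the right except for FER3, whose groups overlap.

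The root uptake genes had low levels in rosettes. FRO2, the ferric chelate reductase, was at 3.00 and 3.40 RPKM in EYFP and at 0.74 and 0.84 RPKM in IMA3 OE (-1.52, SE 0.26, adjusted p = 0.101). IRT1, the ferrous iron importer, was at 1.94 and 1.49 against 0.25 and 0.48 RPKM (-1.36, adjusted p = 0.418). CYP82C4, a cytochrome of coumarin synthesis, was at 1.51 and 0.45 against 0.09 and 0.15 RPKM (-1.16, adjusted p = 0.831). These 3 of 13 tested members were lower at an unadjusted p under 0.05, against 1.57% of all genes, none was higher, and none passed the adjusted threshold. The list median was -0.26.

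Internal iron transporters and chelator synthases went both ways. Of 21 tested genes 5 were lower and 2 were higher at an unadjusted p under 0.05 (1.57% and 2.01% of all genes), none passed the adjusted threshold, and the median was 0.02. Below the EYFP level were ZIF1, a vacuolar transporter that affects zinc and iron distribution (99.90 and 149.96 against 51.57 and 56.17 RPKM, -1.18, adjusted p = 0.217), and NRAMP4, which exports iron from the vacuole (40.88 and 61.83 against 28.06 and 23.28 RPKM, -0.96, adjusted p = 0.275). NAS4, a nicotianamine synthase, was at 62.74 and 80.09 against 42.46 and 31.97 RPKM (-0.93, adjusted p = 0.369). FRO3, the mitochondrial ferric reductase, was at 69.52 and 121.12 against 32.61 and 43.68 RPKM (-1.27, adjusted p = 0.423). Without EYFP replicate 1 and without replicate 2 the differences were -1.47 and -0.89 for ZIF1 and -1.67 and -0.87 for FRO3.

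OPT3, the phloem transporter that loads iron for redistribution, was at 170.15 and 260.49 RPKM in EYFP and at 116.15 and 115.97 RPKM in IMA3 OE (-0.86, SE 0.29, adjusted p = 1). Above the EYFP level was NAS3, the nicotianamine synthase of iron-sufficient leaves, at 2.95 and 0.41 against 14.04 and 5.13 RPKM (2.35, adjusted p = 0.369). YSL1, a transporter of metal-nicotianamine complexes, was at 6.35 and 3.05 against 13.26 and 9.59 RPKM (1.26, adjusted p = 0.355). NAS3 and NAS4, members of the same family, thus differed in opposite directions, with groups that did not overlap for either.

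Of the ferritin genes, which encode the iron storage protein of plastids, FER1 and FER4 had both IMA3 OE libraries above both EYFP libraries, without passing the adjusted threshold. FER1 was at 9.48 and 4.61 RPKM in EYFP and at 49.90 and 39.54 RPKM in IMA3 OE (2.65, SE 0.62, adjusted p = 0.369). FER4 was at 15.85 and 7.83 against 37.22 and 29.79 RPKM (1.53, adjusted p = 0.369). Without EYFP replicate 1 and without replicate 2 the differences were 3.14 and 2.17 for FER1 and 2.02 and 1.05 for FER4. FER3 overlapped between the lines, at 48.77 and 32.48 against 59.34 and 37.07 RPKM (0.23), and its difference was negative without IMA3 OE replicate 1 (-0.10) or EYFP replicate 2 (-0.06). VTL5, a vacuolar iron transporter-like gene, differed by 0.89 (adjusted p = 1) and VTL2 by 0.37, while VTL1 stayed below the level filter, at 0.39 and 0.24 against 0.55 and 0.45 RPKM. Of 6 members tested 3 were higher at an unadjusted p under 0.05 (2.01% of all genes), none was lower, and none passed the adjusted threshold, with a median of 0.67.

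The 15 genes that assemble iron-sulfur clusters moved little apart from NEET and SUFB. SUFB was at 33.48 and 19.69 RPKM in EYFP and at 83.07 and 61.86 RPKM in IMA3 OE (1.46, SE 0.22, adjusted p = 0.0546). The difference of SUFB was 1.84 without EYFP replicate 1 and 1.09 without replicate 2. The other 13 members, among them SUFA, SUFC, SUFD, NFS2 and the NFU genes of the chloroplast pathway, had differences between -0.08 and 0.06. The list median was therefore 0.02.

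Among genes of superoxide, peroxide and electron-transfer metalloproteins, 7 of 17 tested were higher at an unadjusted p under 0.05 (2.01% of all genes), none was lower (1.57%) and none passed the adjusted threshold. FSD1, the iron superoxide dismutase of chloroplasts, was at 17.07 and 12.67 RPKM in EYFP and at 133.02 and 121.17 RPKM in IMA3 OE (3.07, SE 0.53, adjusted p = 0.111), with 3.27 and 2.86 without EYFP replicate 1 and 2. ENH1, a rubredoxin-like iron protein, was at 44.44 and 22.66 against 146.87 and 96.96 RPKM (1.89, adjusted p = 0.101). Its difference was 2.37 without EYFP replicate 1 and 1.42 without replicate 2. Of the haem peroxidases, sAPX of the chloroplast was at 22.61 and 8.36 against 54.35 and 36.79 RPKM (1.66). APX1 of the cytosol was at 136.11 and 81.31 against 276.37 and 186.34 RPKM (1.11). The groups overlapped for tAPX, at 87.86 and 84.11 against 90.74 and 86.61 RPKM (0.04). They also overlapped for the iron superoxide dismutase genes FSD2 (-0.12) and FSD3 (0.14). FD2, the main leaf ferredoxin, was at 1123 and 875 against 1816 and 1327 RPKM (0.65, adjusted p = 1).

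The enzymes that use copper and zinc in place of iron had small differences in the other direction. CSD1, of the cytosol, was at 313.80 and 381.13 RPKM in EYFP and at 270.59 and 300.63 RPKM in IMA3 OE (-0.28, adjusted p = 1). CSD2, of the chloroplast, was at 666.42 and 676.14 against 520.92 and 543.37 RPKM (-0.34), and CCS, their copper chaperone, at 125.41 and 136.21 against 92.05 and 93.72 RPKM (-0.49). The groups did not overlap for any of these 3 genes, as for 14.7% of all genes in this direction. None of the differences passed the threshold, and the unadjusted p by limma was 0.267, 0.195 and 0.0743 for CSD1, CSD2 and CCS. The list of copper uptake and copper proteins had a median of -0.01, with 1 of 13 tested members, ARPN (plantacyanin, 0.50), higher at an unadjusted p under 0.05. The zinc transporters had 0 of 7 at that level.

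**Figure D3:**
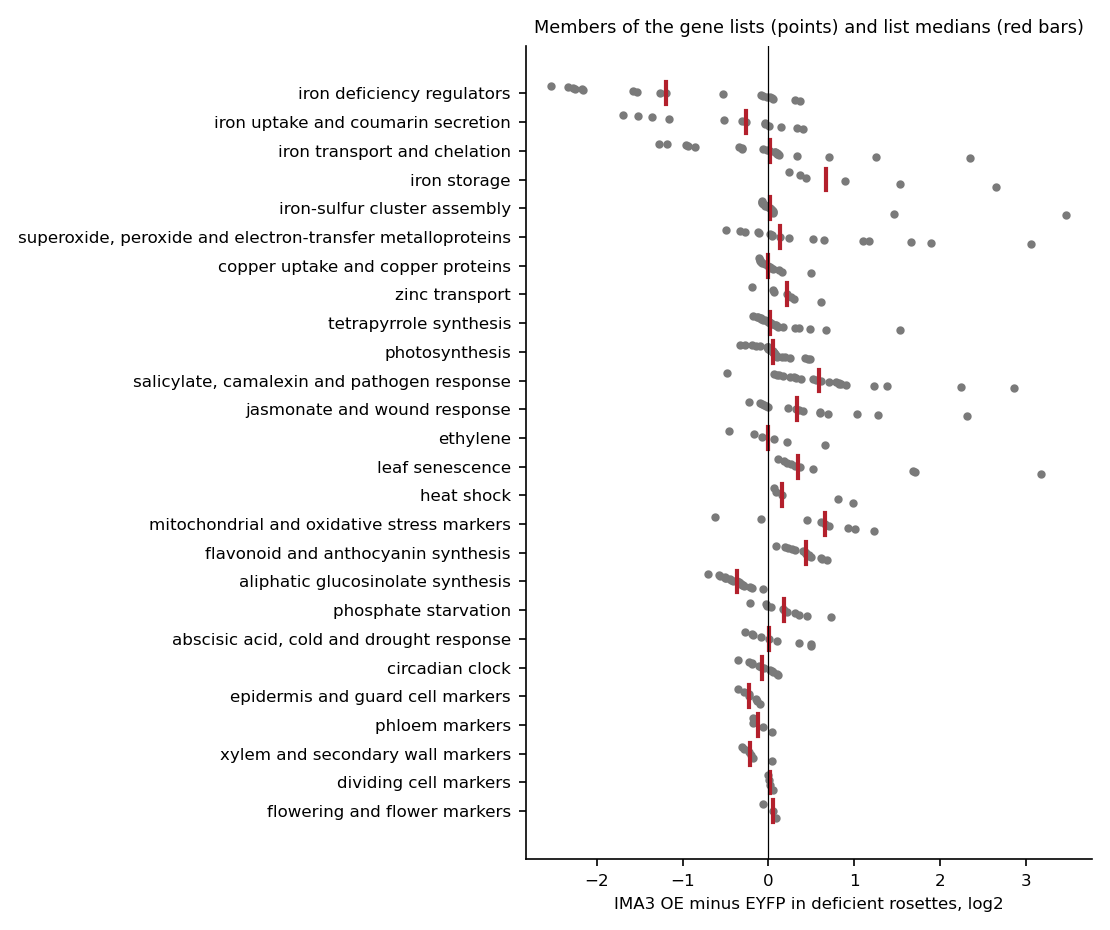
Differences (IMA3 OE minus EYFP, log2) of the tested members of each gene list with at least 3 tested nuclear genes, 1 point per gene, with the list median as a red bar. The iron deficiency regulators have the lowest median, -1.19, and iron storage the highest, 0.67.

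Tetrapyrrole and photosynthesis genes were close to the EYFP level as groups. Of 24 genes of tetrapyrrole synthesis 3 were higher at an unadjusted p under 0.05 (2.01% of all genes) and none was lower, with a median of 0.02. HEMA1, the glutamyl-tRNA reductase that starts the pathway, was at 83.41 and 41.37 RPKM in EYFP and at 160.51 and 182.89 RPKM in IMA3 OE (1.54, adjusted p = 0.662). FC1, a ferrochelatase that inserts iron into haem, differed by 0.67 and HEMA2 by 0.36. Of 36 photosynthesis genes 2, PSAF (0.43) and PSAN (0.49) of photosystem I, were higher at that level, with a median of 0.05. The most abundant transcripts had tied values, such as RBCS1A at 12994.05 RPKM in EYFP replicate 2 and in both IMA3 OE libraries. Closeness of such transcripts between the lines can come from the scaling of the values. Of the transcripts of the plastid genome 42 of 111 tested lay below the EYFP level without overlap, against 14.7% of all genes, with a median of -0.27 and 1 member at an unadjusted p under 0.05 in each direction.

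Of the list of salicylate, camalexin and pathogen response 10 of 22 tested members lay above EYFP without overlap (10.1% of all genes) and none below, while 12 overlapped, and none passed the adjusted threshold. The median was 0.58 on deficient and 0.77 on control medium, where 15 lay above EYFP without overlap (11.8% of all genes). At an unadjusted p under 0.05 there were 3 on deficient medium (2.01% of all genes), namely PR1, CYP71A12 and WRKY46. PR1, a marker of salicylate signalling, was at 2.89 and 17.30 RPKM in EYFP and 50.03 and 62.79 RPKM in IMA3 OE (2.86, SE 0.95, adjusted p = 1). CYP71A12, of camalexin and indole synthesis, was at 0.66 and 0.54 against 5.25 and 4.21 RPKM (2.24, adjusted p = 0.771).

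The leaf senescence list had a median of 0.34, with 7 of 10 tested members above EYFP without overlap (10.1% of all genes). On control medium its median was 0.26, with 5 above EYFP without overlap (11.8% of all genes). On deficient medium 3 were higher at an unadjusted p under 0.05 (2.01% of all genes), SAG13, NYC1 and NAP. SAG13, a dehydrogenase of early senescence, was at 0.43 and 0.51 RPKM in EYFP and at 8.43 and 8.12 RPKM in IMA3 OE (3.18, SE 0.60, adjusted p = 0.187). NYC1, a chlorophyll b reductase, was at 27.94 and 9.14 against 80.64 and 34.21 RPKM (1.68), and NAP, a NAC factor of senescence, at 1.88 and 5.58 against 6.10 and 23.11 RPKM (1.71), both with an adjusted p of 1. Of 9 mitochondrial and oxidative stress markers 4 were higher at an unadjusted p under 0.05 (AOX1A, OM66, ZAT12 and ZAT10), against 2.01% of all genes, with a list median of 0.66 and UPOX at -0.62. On control medium 3 members were at that level and the median was 0.63. The jasmonate list had a median of 0.33, with 8 of 16 above EYFP without overlap (10.1% of all genes) and 1 below (14.7%). Of these 16 members, 2 (JAZ5 and JAZ10) were higher at an unadjusted p under 0.05 (2.01% of all genes). On control medium the median was 0.14, with 2 members higher at that level (1.63% of all genes). None of these genes passed the adjusted threshold.

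In aliphatic glucosinolate synthesis all 19 tested genes had negative differences, with a median of -0.36, and 6 were lower at an unadjusted p under 0.05 (1.57% of all genes). MAM1, which starts chain elongation, was at 193.38 and 191.26 RPKM in EYFP and at 140.75 and 131.88 RPKM in IMA3 OE (-0.50, SE 0.12, adjusted p = 0.424). This median depended on 1 library, since it was 0.002 without IMA3 OE replicate 2. On control medium, from other libraries, it was -0.27, with 3 members lower at an unadjusted p under 0.05 (1.51% of all genes). The flavonoid list, with a median of 0.44 and 0 of 15 at an unadjusted p under 0.05, moved to 0.07 without EYFP replicate 1. The medians of the ethylene (-0.003), clock (-0.07), abscisic acid (0.01), phosphate (0.18) and heat shock (0.15) lists came with no member at an unadjusted p under 0.05. Markers of epidermis and guard cells had a median of -0.22, with 5 of 7 below EYFP without overlap (14.7% of all genes) and 1, FAMA, lower at that level. Xylem markers had a median of -0.22, with 4 of 6 below EYFP without overlap (14.7% of all genes). Phloem markers were at -0.12, dividing cell markers at 0.01, root endodermis markers at 0.02, flowering markers at 0.06 and mitochondrial genome transcripts at -0.08. Summed levels of the epidermis and guard cell markers were 245.7 to 249.9 RPKM in EYFP and 212.2 to 230.7 RPKM in IMA3 OE, and the part of this in the other results was not tested.

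On control medium, where the differences come from other libraries than on deficient medium but the estimate of the spread is shared, no gene passed the adjusted threshold. At an unadjusted p under 0.05 there were 613 genes (3.15%), 318 higher (1.63%) and 295 lower (1.51%) in IMA3 OE, and the authors' deposited p-values, after adjustment, gave 31 higher and 11 lower. Of the genes at this level 114 were higher on both media, which is 29.2% of those on deficient and 35.8% of those on control medium. Lower on both were 39 genes (12.7% and 13.2%), and 5 in each direction were opposite. Across the 19472 genes the differences on both media had a Pearson correlation of 0.46 and a Spearman correlation of 0.31, a description over genes that are not independent.

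**Figure D4:**
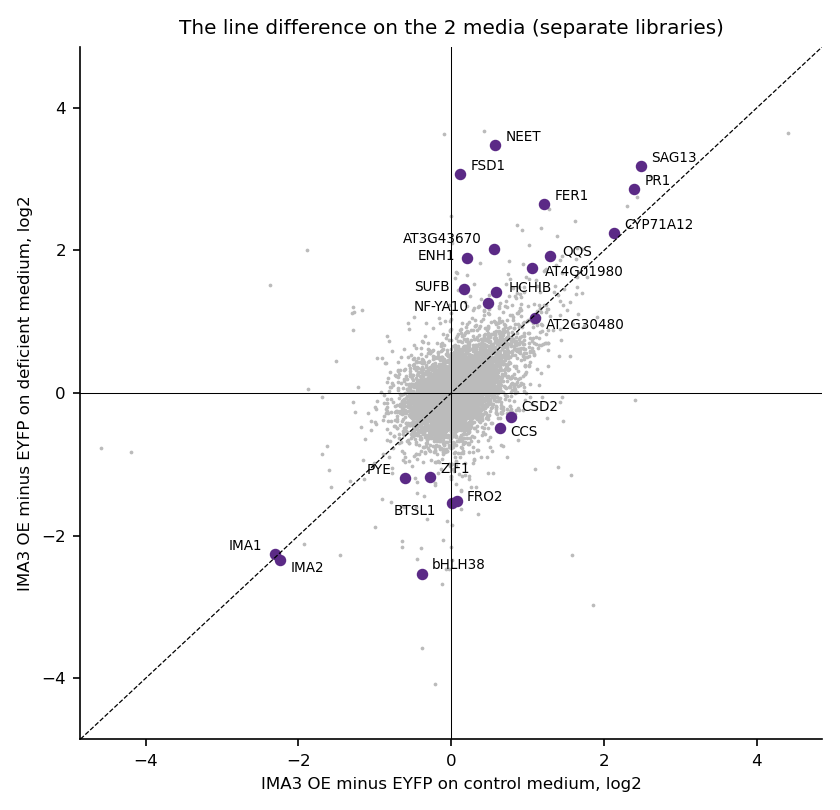
Line difference (IMA3 OE minus EYFP, log2) on deficient medium against that on control medium for 19472 genes, with selected genes named and a dashed line where both are equal. SAG13, PR1, CYP71A12, QQS, IMA1 and IMA2 lie near the dashed line. NEET, FSD1, SUFB, ENH1 and bHLH38 have differences between -0.39 and 0.57 on control medium, where bHLH38 was at 0.76 RPKM or less.

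Some genes had line differences in the same direction on both media, although none passed the adjusted threshold on control medium. QQS was at 6.59 and 6.81 RPKM in EYFP and at 15.30 and 19.20 RPKM in IMA3 OE on control medium (1.29, SE 0.14, adjusted p = 0.0506). Its difference between media was 0.63 (SE 0.20, unadjusted p = 0.0105). AT2G30480 was at 1.59 and 1.65 against 4.25 and 3.83 RPKM (1.097, adjusted p = 0.0636), and its difference between media was -0.05. SAG13 differed by 2.48 on control medium, PR1 by 2.39 and CYP71A12 by 2.13. IMA1 was at 8.73 and 1.96 RPKM in EYFP and 0.64 and 0.31 RPKM in IMA3 OE (-2.31, adjusted p = 1), and IMA2 differed by -2.24, with differences between media of 0.05 for IMA1 and -0.10 for IMA2.

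On control medium FSD1 was at 394.54 and 682.61 RPKM in EYFP and at 525.20 and 601.36 RPKM in IMA3 OE (0.11, adjusted p = 1). NEET was at 98.71 and 230.89 against 203.64 and 248.02 RPKM (0.57), SUFB at 95.84 and 117.36 against 117.69 and 120.62 RPKM (0.17) and ENH1 at 200.75 and 201.61 against 274.19 and 197.76 RPKM (0.21). The difference between media was 2.90 for NEET, 2.95 for FSD1, 1.296 for SUFB and 1.68 for ENH1, and FER1 had 1.44 (unadjusted p = 0.127). Across all genes no difference between media passed the adjusted threshold by limma, and 253 (1.3%) were at an unadjusted p under 0.05, 144 of them positive (0.74%) and 109 negative (0.56%), so a dependence on medium was not established for these genes. Among the lowest p of this test, the difference between media was 1.46 for AT3G43670, 0.74 for AT2G39270, 1.12 for AT1G20420, -1.55 for BTSL1, -2.39 for AT2G14245 and -1.23 for AT1G02700. For bHLH38 it was -2.14. On control medium bHLH38 was at 0.76 and 0.02 RPKM in EYFP and at 0.08 and 0.16 RPKM in IMA3 OE. BTSL1, AT2G14245, AT1G02700 and AT1G20420 had at most 0.3 RPKM in these control libraries. At such levels the added 0.5 RPKM keeps a line difference on control medium small. The difference between media of these genes therefore mainly restates that on deficient medium.

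**Figure D5:**
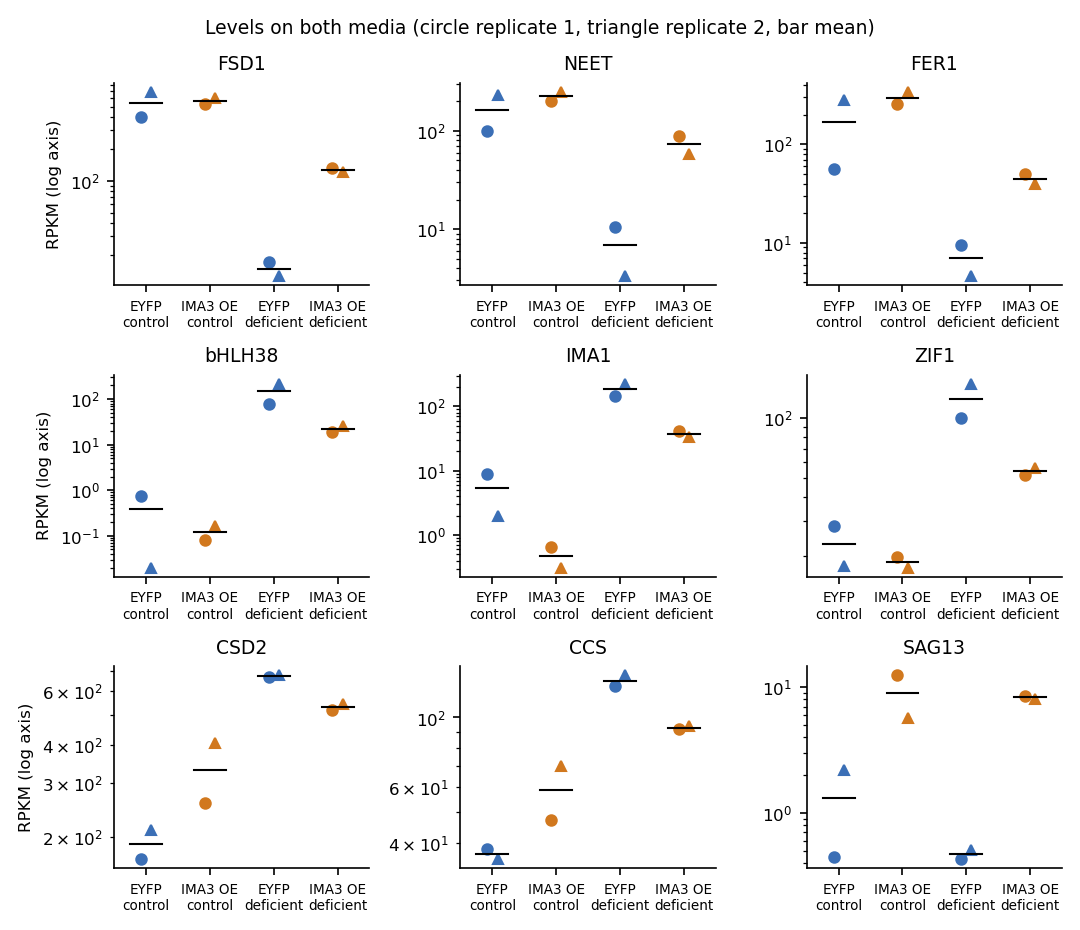
Levels (RPKM, log axis) of 9 transcripts in EYFP (blue) and IMA3 OE (orange) rosettes on both media, with circles for replicate 1, triangles for replicate 2 and bars for the mean of 2 libraries. The media come from separately scaled tables; FSD1, NEET and FER1 have their lowest levels in EYFP on deficient medium, and bHLH38, IMA1 and ZIF1 their highest.

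The tables of the other comparisons place these levels. They share the EYFP libraries with the comparison above, so values are given side by side and were not tested. Against EYFP on control medium, EYFP on deficient medium differed by -4.59 for NEET, -5.11 for FSD1 and -4.19 for FER1, and IMA3 OE on deficient medium by -1.09, -2.03 and -1.51. For bHLH38 the values were 7.33 in EYFP and 4.78 in IMA3 OE, and for IMA1 5.26 and 2.97. IMA3 OE rosettes on deficient medium thus lay between EYFP rosettes on both media for these 5 genes.

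The other lines that were compared with the same EYFP rosettes on deficient medium are an IMA1 overexpressor and opt3-2, an insertion line of OPT3. NEET differed from EYFP by 5.15 in IMA1 OE and by 3.60 in opt3-2, beside 3.47 in IMA3 OE, and FER1 by 4.60 and 4.09, beside 2.65. For bHLH38 the values were -7.42 in IMA1 OE and -0.50 in opt3-2, beside -2.53 in IMA3 OE, and for PYE -2.42 and -0.78, beside -1.19. QQS differed by -0.53 in IMA1 OE and 0.15 in opt3-2, and AT2G30480 by 0.00 and -0.09, beside 1.92 and 1.05 in IMA3 OE. In roots on deficient medium IMA3 OE differed from EYFP by 2.22 for QQS, 0.55 for FSD1, -0.73 for NEET and -1.23 for bHLH38.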

How the data were processed

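RNA sequencing values of rosettes were read from the deposited tables, 13 of rosettes and 1 of roots. The authors made values per library on the RPKM scale, a unit taken from the values because no header names it. The sorted values of a table's libraries nearly coincide, as after equalising. Per the file headers, log2 fold changes and unadjusted p-values of a Z-test by the authors stand beside them. Per the submitters' processing notes, the genome was TAIR10 and the tools included limma 3.26.9, edgeR 3.12.1, Bowtie2 2.0.6, Trimmomatic 0.35 and bcl2fastq 1.8.4. Depth is unknown because no counts were given, and strand use in counting is not given in the sources used here.

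Differences were computed inside the deposited table of a comparison, on the log2(RPKM + 0.5) scale, which understates changes of weakly expressed genes. Genes whose mean reached 0.5 RPKM were kept and 4 construct features left out. The residual variance came from 8 rosette groups (8 degrees of freedom), moderated toward a trend with level by squeezeVar of limma 3.58.1 in R 4.3.3, with 2.736 prior degrees of freedom. P-values are 2-sided and Benjamini-Hochberg adjusted over 19472 genes. The test was checked on simulated data. Levels of both media come from separately scaled tables, and the difference between media was taken between within-table differences.

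Named were IMA3 and the constructs, the 12 highest and 12 lowest genes past the threshold (filled by p), list members past it, a panel of iron genes, and the 5 lowest p in each direction for the difference between media. A few further list members are named as examples, chosen after their values were seen. The 28 lists had 374 members, of which 373 were in the table. Members and lists were chosen with earlier results of these data known. Names matched RefSeq for 32835 of 33611 features. The alternatives were other pseudocounts, filters, variance models, centring, a replicate block, left-out libraries and the authors' p-values.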

Additional observations from a re-analysis of the deposited data

Results flagged for a closer look

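For 6 of 48 named genes the IMA3 OE libraries lay outside both EYFP libraries in opposite directions on the 2 media. Over all 19472 genes tested this held for 366 (1.88%). Of the 6, AT2G07726 and AT1G14890 were named for a low p of the difference between media. The share among named genes is therefore partly a product of their selection. Each value below is the difference on deficient medium minus that on control medium (log2), by limma. CSD1 was lower on deficient medium and higher on control medium, 127.05 and 124.27 RPKM in EYFP against 187.30 and 231.69 RPKM in IMA3 OE on the latter, with a difference between media of -1.005. CSD2 was at 169.17 and 211.12 against 258.77 and 405.76 RPKM on control medium and had a difference of -1.11. CCS was at 38.15 and 35.49 against 47.29 and 70.09 RPKM there and had a difference of -1.13. IRT1 had -1.48, on control levels of at most 0.06 RPKM. The transcribed pseudogene AT2G07726, at 0.95 and 0.92 against 0.07 and 0.23 RPKM on deficient and 0.24 and 0.27 against 2.07 and 1.44 RPKM on control medium, had -2.72. AT1G14890, annotated as a pectin methylesterase inhibitor, had -0.81. None of these passed adjustment, with adjusted p of 0.777 for AT2G07726 and 1 for the others.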

How the results depend on the processing

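The count of genes was small and moved with most settings. On deficient medium the lower genes numbered 0 with a pseudocount of 0.1 or 1 RPKM, 14 with no filter and 4 with a prior without a trend, beside 2 as reported. A mean of at least 2 RPKM left 1 higher and 0 lower, and the spread of the compared groups alone 0 and 0 (594 at an unadjusted p under 0.05). The replicate block gave 19 higher and 8 lower, including all 12 reported genes. Same-numbered libraries of both lines deviated together (r = 0.506), but only 2 numbers exist and nothing in the labels pairs them. The authors' p-values, adjusted, gave 49 higher and 50 lower, in part other genes than those reported. Their unadjusted Z-test p was 1.47e-13 for NEET and 0.00164 for QQS. It was 0.278 for BTSL1, 0.286 for HCHIB and 0.315 for AT2G30480, which passed here. For ENH1 it was 1.36e-12, for BTS 4.63e-10 and for FER1 1.64e-07, which did not pass here. Nor did IMA1, IMA2, IMA3, bHLH38, bHLH100 and FSD1 pass here, for which the Z-test p was given as 0, or bHLH39, at 2.49e-13. For FRO2 and IRT1, also not past the threshold here, the Z-test p was 0.227 and 0.349. Leaving out 1 library gave 1 to 16 higher and 0 to 12 lower genes: 2 in all without IMA3 OE replicate 1, 1 without replicate 2, 28 without EYFP replicate 1, of which 7 were among the 12, and 1 without EYFP replicate 2. On control medium higher genes numbered 1 with a pseudocount of 1, with the stricter filter or centred, 2 with no filter or no trend and 3 with the replicate block. Lower genes there numbered 2 with no filter and 0 to 1 with 1 library left out. The authors' p-values gave 31 and 11. The difference between media gave 3 higher and 9 lower with no filter, 1 higher without a trend, and 0 to 1 higher and 0 to 5 lower with 1 library left out. FER3 ranged from -0.10 to 0.57 with 1 library left out, reversing to -0.10 without IMA3 OE replicate 1 and to -0.06 without EYFP replicate 2. Of the values for single genes and list medians 970 counted as unchanged, 66 lost and 24 gained the call, 27 moved and 2 reversed. A single gene counted as unchanged if it kept its direction and its side of the threshold. A list median did so if it shifted by less than the standard deviation of the list's differences, and its sign was not compared. The causes were not tested. Depth, being unknown, sets no stated limit.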
